A study of Homo sapiens with 12 samples.

Results

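NRF2, encoded by NFE2L2, is a transcription factor whose protein is held low in unstressed cells by KEAP1, an adaptor that delivers it for ubiquitination. Oxidants and electrophiles modify KEAP1, NRF2 then accumulates, pairs with small MAF proteins and binds the antioxidant response element, a short DNA motif near genes for quinone reduction, glutathione synthesis, thioredoxin recycling and NADPH supply. Much of its control is at the level of the protein, so NFE2L2 mRNA need not follow NRF2 activity. The genes described here are NQO1, HMOX1, GCLM, GCLC, TXNRD1, SRXN1, PIR, OSGIN1 and ME1, each a known NRF2 target in human cells, with NFE2L2 itself. They were chosen by a measured value, the fall of the NQO1 probe with time in cells given the empty vector, and the question was whether the other targets followed. Of the 10 genes, 9 had a probe under that symbol among the 20046 genes named on the array, with 14 probes between them. All 9 were among the 12323 genes tested, through 12 of the 14 probes. The expression of OSGIN1 was not analysed here.

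The samples were BE(2)-C cells, an established human neuroblastoma line. Each was transfected with 2 µg of plasmid using effectene, a lipid reagent, and harvested at 24, 48 or 72 h. The plasmid was either pTRex-GRHL1, which carries GRHL1, a grainyhead-family transcription factor, or the empty vector pTRex-Dest30, in 6 groups of 2 Illumina arrays each (12 arrays). All groups were transfected, and no untransfected cells were analysed here. Transfection was transient and RNA came from whole cultures, so fewer cells carrying a transcript and less RNA per cell cannot be told apart. The labels do not say whether the 2 arrays of a group came from separate cultures, and the p-values therefore describe the scatter among these arrays, which may be technical.

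Values are intensities in the units of the deposited normalized table, without subtraction of background. Array medians lay between 119.7 and 121, and a probe with an intensity below 128.4 could not be told from background, since 95% of undetected probes lay below that level. Between 17950 and 19427 probes were detected per array, and the 2 arrays of a group correlated at r of 0.9917 to 0.9925. The GRHL1 probe with signal read 4669.2 to 12963.9 on the 6 GRHL1 plasmid arrays and 92.3 to 122.8 on the 6 empty vector arrays. All 12 neuroblastoma markers on the array were above the detection limit on every array. Of other cell types, 4 to 5 of 8 fibroblast, 2 to 3 of 7 leukocyte, 1 to 3 of 7 epithelial and 0 to 1 of 4 glial markers were above it. The summed neuroblastoma markers read 78912 to 80230.7 at 24 h and 80774.4 to 83932.1 later, without overlap, and the summed fibroblast markers 4389.6 to 4941 and 4401.2 to 5297.4. The part of either in the results below was not tested. COL3A1, CDH1, CD3E and GFAP were below the limit on every array. Other markers of the fibroblast, epithelial and leukocyte lists were above it on every array. Among them were THY1 (2146.5 to 2579.9), the brightest DCN probe (762.9 to 1442.9), KRT19 (198.8 to 263) and a CD14 probe (179.3 to 235.1). The scanner table and the normalized table gave different sample names to 7 of the 12 columns. All 7 were 48 or 72 h columns, the 4 columns at 24 h had the same name in both tables, and none of the 12 moved between 24 h and the later times. The normalized table, which the choice of the genes rested on, was used, and under its names the GRHL1 signal followed the plasmid. The scanner names go against that signal. Of the 4 later arrays they call GRHL1, 3 had the GRHL1 probe below the detection limit (at most 103.9), and of the 4 they call empty vector, 3 had it at 4669.2 or more. Values under the scanner names are given for completeness beside NQO1, HMOX1, GCLM, GCLC and the plasmid differences of NQO1 and SRXN1, and at 48 and 72 h they do not compare the plasmids. They come from the scanner intensities after quantile normalization, which gives all arrays the same distribution. They therefore differ from the reported fit in scaling as well as in names. The 3 later arrays without GRHL1 signal that the scanner names call GRHL1 are empty vector arrays in the normalized table. Their values belong to the choice of the genes, so changes with time under the scanner names are a description only.

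The sequence just upstream of the annotated start was examined for the core of the antioxidant response element, TGACNNNGC, on both strands, to show where the motif lies in these genes. RefSeq windows (GRCh38.p14) of 250 bases before to 50 after the start were at hand for 9 of the 10 genes, in 11 windows, with none for HMOX1. A match was present in 4 of the 9 genes (GCLM, ME1, PIR and TXNRD1). By window it was present in 5 of the 11, and in 13.3% of all 35116 windows of the same length. The 250 upstream bases of GCLM (chr1:93909431-93909680, minus strand) held the match 34 bases before the start. Those of ME1 (chr6:83431052-83431301, minus strand) held it 137 bases before the start, where it overlaps a match to the AP-1 motif TGACTCA, which was in 4.95% of windows. The window of NQO1 (chr16:69726561-69726810, minus strand) held neither motif. Sequences are written 5′ to 3′ along the gene, with the match in capitals:
GCLM: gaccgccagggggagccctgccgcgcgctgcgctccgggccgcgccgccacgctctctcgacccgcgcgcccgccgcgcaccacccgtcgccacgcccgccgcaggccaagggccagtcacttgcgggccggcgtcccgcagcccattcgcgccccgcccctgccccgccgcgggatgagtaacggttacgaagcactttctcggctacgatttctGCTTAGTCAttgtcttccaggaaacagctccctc
ME1: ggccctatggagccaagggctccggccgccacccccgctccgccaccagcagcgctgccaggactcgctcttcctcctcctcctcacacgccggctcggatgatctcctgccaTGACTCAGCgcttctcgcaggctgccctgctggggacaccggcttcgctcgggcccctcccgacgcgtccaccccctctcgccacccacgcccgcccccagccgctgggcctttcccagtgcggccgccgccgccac
NQO1: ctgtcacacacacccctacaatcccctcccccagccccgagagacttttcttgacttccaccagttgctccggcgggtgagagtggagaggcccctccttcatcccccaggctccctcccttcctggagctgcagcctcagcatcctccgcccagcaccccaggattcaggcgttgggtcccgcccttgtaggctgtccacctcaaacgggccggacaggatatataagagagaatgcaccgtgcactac
A match describes these letters only, and elements lying further away are outside these windows.

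NQO1, the quinone reductase that is the standard readout of NRF2 activity, was lower at 48 and 72 h than at 24 h under both plasmids. In empty vector cells its probe read 981.1 and 1028.8 at 24 h, 563.2 and 566.8 at 48 h, and 532.2 and 608.7 at 72 h. In GRHL1 plasmid cells it read 1106.7 and 1224.6 at 24 h, 657.2 and 673 at 48 h, and 609.8 and 667 at 72 h. All 4 arrays at 24 h lay above all 8 later arrays, whose mean was 56.2% of the 24 h mean. The empty vector values chose the genes and are a description only, with log2 differences of -0.91 ± 0.11 (SE) at 48 h and -0.90 ± 0.11 at 72 h. The values of the GRHL1 plasmid arrays did not enter that rule. There NQO1 fell by 0.88 ± 0.11 on the log2 scale at 48 h (limma, adjusted p = 0.0195). At 72 h NQO1 fell by 0.94 ± 0.11 (limma, adjusted p = 0.0119). The SEs and p-values of this fit pool the spread of all arrays, including the empty vector arrays that chose the genes. The genes were also chosen with earlier results of these data known, so these p-values are not independent of the choice. Of the 12323 genes tested, 14 had a larger fall than NQO1 at 48 h (0.114%) and 4 at 72 h (0.0325%). Both later times were set against the same 24 h arrays, so these tests are not independent of each other. A second NQO1 probe read 105.9 to 135.5 on all arrays, near background, and was not tested.

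The fall of NQO1 in GRHL1 plasmid cells kept its direction in every alternative run, but its call was lost in several of them. With the 6 GRHL1 plasmid arrays alone its adjusted p was 0.133 at 48 h and 0.0852 at 72 h, and without either GRHL1 plasmid array at 24 h, or either at the later time compared, it reached up to 0.222 and 0.142. Under the scanner table's names the log2 differences were -1.10 (adjusted p = 0.0927) and -1.07 (adjusted p = 0.0687).

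**Figure D1:**
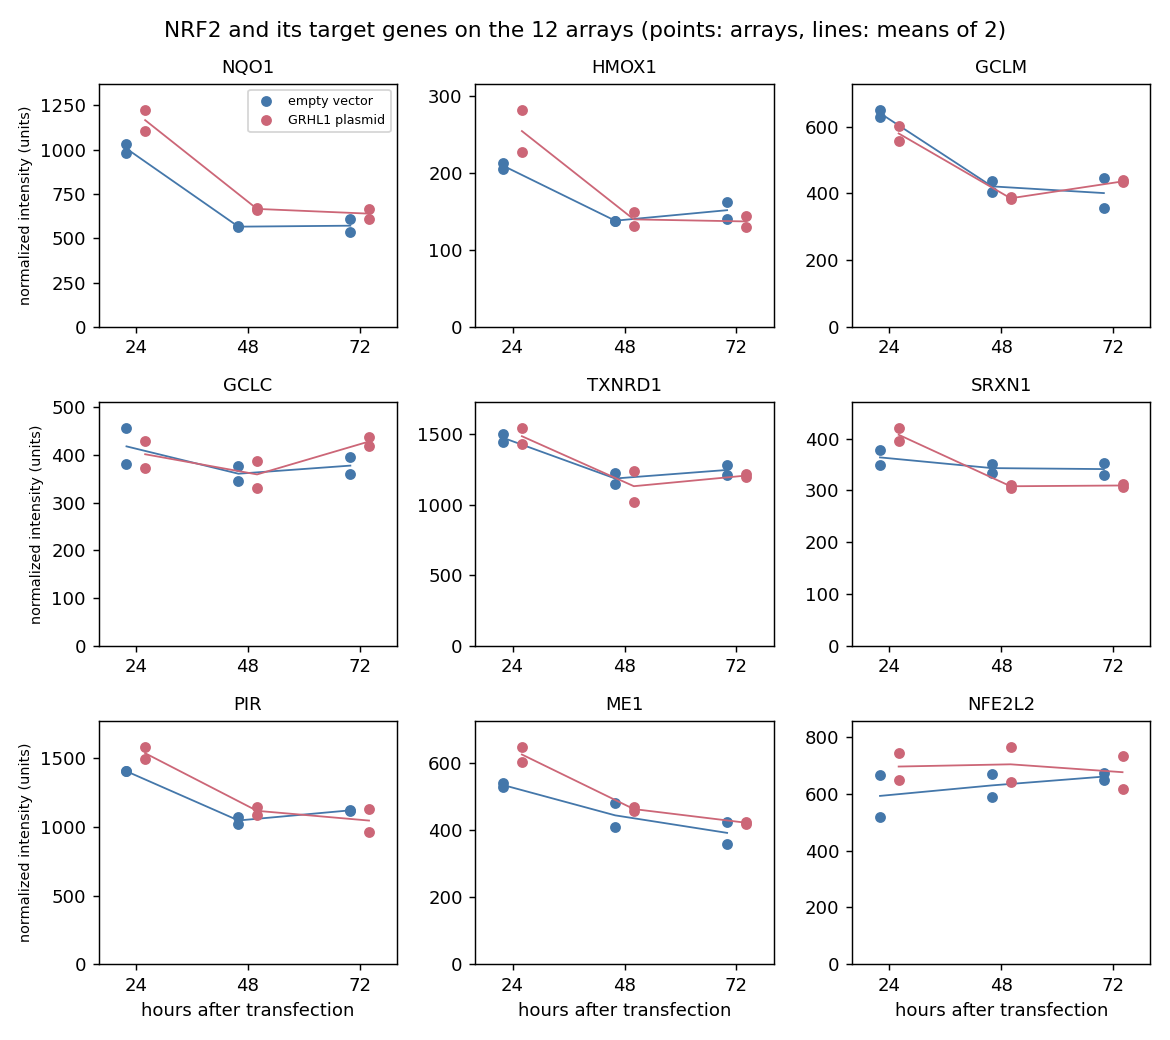
Normalized intensity (linear scale) of the brightest probe of each of the 9 genes against hours after transfection, with 1 point per array, lines through the means of 2 arrays, blue for empty vector and red for the GRHL1 plasmid. NQO1, HMOX1, GCLM, PIR, ME1 and TXNRD1 are lower on all 8 later arrays than on all 4 arrays at 24 h, and SRXN1, GCLC and NFE2L2 overlap.

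HMOX1, heme oxygenase, which breaks heme down to biliverdin, iron and carbon monoxide and is repressed by BACH1 as well as induced by NRF2, had the largest fall of all 12323 genes at 48 h in GRHL1 plasmid cells in the background-corrected fit. It read 226.3 and 281.8 at 24 h, 130.3 and 148.6 at 48 h, and 129.4 and 144.2 at 72 h in those cells. With the empty vector it read 205.2 and 212.8 at 24 h, 137.5 and 138 at 48 h, and 140.4 and 162.4 at 72 h. The 24 h arrays did not overlap with the later arrays under either plasmid. In GRHL1 plasmid cells HMOX1 fell by 1.38 ± 0.19 on the log2 scale at 48 h (limma, adjusted p = 0.0382) and fell by 1.42 ± 0.19 at 72 h (adjusted p = 0.0228). The later values lay just above the detection limit, so the size of the fall depended on the background correction, and without it the differences were -0.86 and -0.89. With replicate number as a block the call at 48 h was lost (adjusted p = 0.0552) and that at 72 h was kept (0.0366). With the 6 GRHL1 plasmid arrays alone the adjusted p was 0.171 and 0.103, and under the scanner names 0.192 and 0.0681. The call was lost for 10 of the 12 arrays left out in turn at 48 h (all but those of empty vector cells at 72 h, adjusted p up to 0.311) and for 4 at 72 h (the GRHL1 plasmid arrays at 24 and 72 h, adjusted p up to 0.166). The empty vector differences were -0.99 ± 0.19 and -0.74 ± 0.19, given as a description.

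NQO1 and HMOX1 were the 2 of 9 genes called lower in GRHL1 plasmid cells at 48 h, where 0.0568% of all genes tested were called lower and 0.0974% in either direction. At 72 h the same genes were the 2 of 9 called lower, against 0.0893% of all genes lower and 0.211% in either direction. At an unadjusted p under 0.05, 7 of 9 were lower at each time, against 5.89% and 5.84% of all genes, and none was higher, against 3.96% and 5.08%. The median log2 difference of the 9 was -0.50 at 48 h and -0.49 at 72 h, against -0.02 and -0.01 over all genes tested. These counts include NQO1, whose fall chose the genes. Without it 1 of 8 genes was called lower at each time, which was HMOX1. At an unadjusted p under 0.05, 6 of 8 were lower at each time, and the median of the 8 was -0.49 and -0.48. In GRHL1 plasmid cells both 24 h arrays lay above all 4 later arrays in 7 of the 9 genes, as in 12% of all genes. With the empty vector the same held for 6 of 9, as in 8.67% of all genes, and nothing is read from it because NQO1 there set the choice. By limma 0 of 9 at 48 h and 1 of 9 at 72 h were called there, where 0.00811% and 0.0568% of all genes were, and this too is a description. Over all 12 arrays, which include those of the choice, the 24 h arrays lay above every later array in 6 of 9, as in 1.8% of all genes, and below every later array in none, as in 1.32% of all genes. Those last counts are the same under either table's sample names, since no column crosses between 24 h and later.

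**Figure D2:**
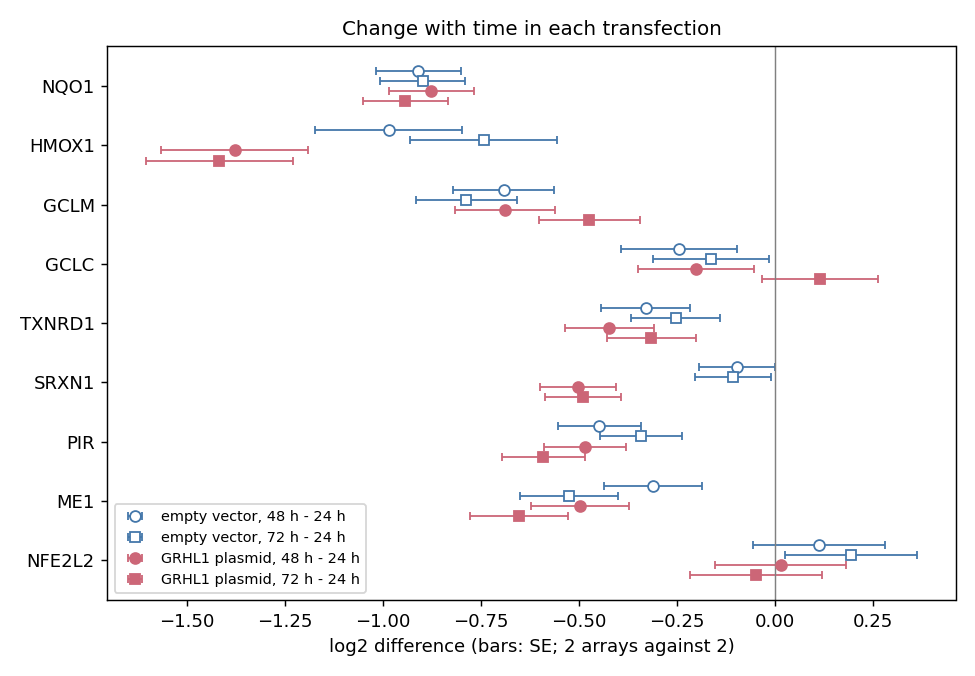
Log2 difference from 24 h (x axis) for each gene, with bars of 1 SE and 2 arrays against 2, open blue symbols for empty vector, filled red symbols for the GRHL1 plasmid, circles for 48 h and squares for 72 h. All points of 7 genes lie below 0, GCLC lies above 0 at 72 h in GRHL1 plasmid cells (0.11), and NFE2L2 lies within 0.20 of 0.

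Neither gene of glutathione synthesis was called. GCLM and GCLC encode the modifier and catalytic subunits of glutamate-cysteine ligase, the rate-limiting enzyme of glutathione synthesis. The GCLM probe read 558 and 602 at 24 h, 382.3 and 388.9 at 48 h, and 433 and 439.4 at 72 h in GRHL1 plasmid cells. With the empty vector it read 630.5 and 651.3, then 404.4 and 438.3, then 356.7 and 445.7. No later array reached the 24 h level, and the later mean was 67.3% of it. The log2 difference in GRHL1 plasmid cells was -0.69 ± 0.13 at 48 h (adjusted p = 0.0983) and -0.47 ± 0.13 at 72 h (adjusted p = 0.236), neither past the threshold, and under the scanner names it was -0.46 and -0.76. A dimmer second GCLM probe also showed no overlap, with 166 to 175.9 at 24 h and 143.7 to 164.4 later. The GCLC probe read 372.8 to 455.9 at 24 h and 330.1 to 436.8 later, with overlapping ranges. Its differences in GRHL1 plasmid cells were -0.20 ± 0.15 at 48 h (adjusted p = 0.703) and 0.11 ± 0.15 at 72 h (adjusted p = 0.841). The sign at 72 h turned under the scanner names (-0.11) and without the second GRHL1 plasmid array at 24 h (-0.01). The other GCLC probe was at background, at 90.2 to 112 on all arrays.

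Neither gene of the thioredoxin system was called. TXNRD1, cytosolic thioredoxin reductase, read 1429 and 1540.2 at 24 h, 1020.6 and 1239.9 at 48 h, and 1196.3 and 1214.2 at 72 h in GRHL1 plasmid cells. It read 1444.8 and 1501.1, then 1148.6 and 1221.1, then 1213.1 and 1277.7 in empty vector cells. Its brighter probe separated 24 h from later arrays, at 80.6% of the 24 h mean, while its other probe overlapped, at 85.2%. The log2 differences of the brighter probe in GRHL1 plasmid cells were -0.42 ± 0.11 (adjusted p = 0.267) and -0.32 ± 0.11 (adjusted p = 0.347). SRXN1, sulfiredoxin, which reduces overoxidised peroxiredoxins, read 395.2 and 419.9 at 24 h, 305.3 and 310.7 at 48 h, and 306.8 and 312.2 at 72 h in GRHL1 plasmid cells. In empty vector cells it read 349.9 and 377.7, then 334.4 and 351.8, then 330.3 and 352.1, with overlap between 24 h and later. Its differences were -0.50 ± 0.10 (adjusted p = 0.108) and -0.49 ± 0.10 (adjusted p = 0.116) in GRHL1 plasmid cells, and -0.10 ± 0.10 and -0.11 ± 0.10 in empty vector cells.

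PIR and ME1 were lower later on every array. PIR, pirin, an iron-binding nuclear protein, read 1493.7 and 1583.1 at 24 h, 1090.7 and 1146 at 48 h, and 960.8 and 1134 at 72 h in GRHL1 plasmid cells. The empty vector values were 1406.1 and 1407.2, then 1025.2 and 1071, then 1116.1 and 1127.9. Its 2 probes gave later means of 73.6% and 76.9% of the 24 h means, without overlap in either. ME1, cytosolic malic enzyme, a source of NADPH, read 604 and 648.4 at 24 h, 457.8 and 468.8 at 48 h, and 419.6 and 425.6 at 72 h in GRHL1 plasmid cells. The empty vector values were 530.2 and 539.7, then 409 and 480.1, then 359.8 and 424.6. The log2 differences of PIR in GRHL1 plasmid cells were -0.49 ± 0.10 at 48 h (adjusted p = 0.146) and -0.59 ± 0.10 at 72 h (adjusted p = 0.0780). Those of ME1 were -0.50 ± 0.13 (adjusted p = 0.239) and -0.65 ± 0.13 (adjusted p = 0.105). Neither gene passed the threshold.

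NFE2L2, the gene for NRF2, did not separate by time. It read 519.3 to 745.1 at 24 h and 589.5 to 765.4 later, and its later mean was 103.6% of the 24 h mean. Its difference in GRHL1 plasmid cells was 0.01 ± 0.17 at 48 h (adjusted p = 0.988) and -0.05 ± 0.17 at 72 h (adjusted p = 0.948), and its sign turned in several alternatives. A p that misses the threshold does not show that its mRNA stayed level.

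**Figure D3:**
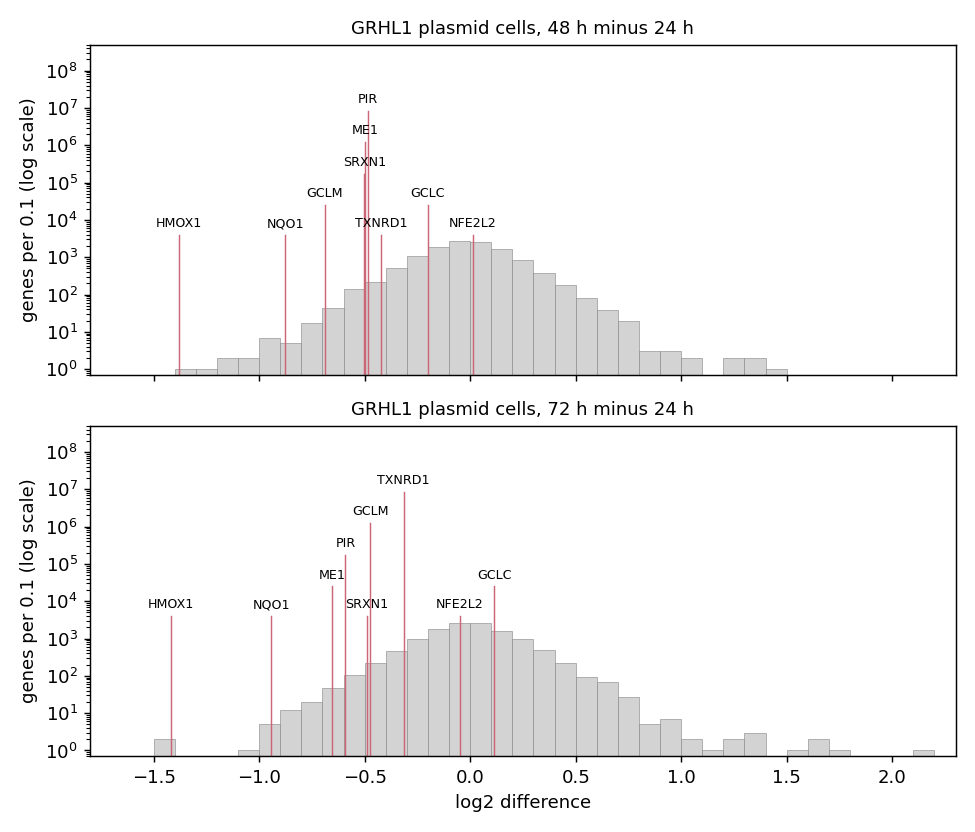
Histograms of the log2 differences of all 12323 genes in GRHL1 plasmid cells (x axis, 0.1 per bar, log scale of genes on the y axis), with the 9 genes as red lines whose heights carry no value, for 48 h above and 72 h below. HMOX1 and NQO1 lie in the left tail, with 0 and 14 genes further left at 48 h and 1 and 4 at 72 h.

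Averaging the 48 and 72 h arrays, a comparison added after the data were seen, gave NQO1 -0.91 ± 0.09 (limma, adjusted p = 0.00544) and HMOX1 -1.40 ± 0.16 (adjusted p = 0.00835) in GRHL1 plasmid cells. With the 6 GRHL1 plasmid arrays alone neither gene was called. Under the scanner names the adjusted p was 0.0447 and 0.0449. Most later arrays in that run are empty vector arrays in the normalized table, whose values chose the genes. Nothing is read from it. PIR and SRXN1 were next, each with an adjusted p of 0.0598, then ME1 (0.0805) and GCLM (0.0826), while TXNRD1 was at 0.201. In this comparison 2 of 9 were called, both lower, against 0.227% of all genes in either direction and 0.0811% lower. Between 48 and 72 h none of the 9 genes was called by limma under either plasmid, and none had an unadjusted p under 0.05. None of the 12323 genes was called between these times either.

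The plasmids were compared at each time. None of the 9 genes was called at 24, 48 or 72 h or over the mean of the 3 times (limma), where 0.381%, 0.446%, 0.325% and 1.71% of all genes were called. At an unadjusted p under 0.05 the counts were 0, 1, 0 and 1, each time NQO1, where 8.76%, 8.29%, 7.45% and 12.2% of all genes were, so 1 of 9 is near the background share. These counts use the brightest probe of each gene. The dimmer TXNRD1 probe, detected on all 12 arrays, had both GRHL1 plasmid arrays below both empty vector arrays at all 3 times. Its mean difference was -0.16 ± 0.06 (limma on every probe, unadjusted p = 0.0227, adjusted p = 0.299). By the brightest probes none of the 9 genes lay below at all 3 times, as did 1.63% of all genes. NQO1 was the 1 gene of the 9 for which both GRHL1 plasmid arrays lay above both empty vector arrays at all 3 times, as in 2.78% of all genes. Its means were 1165.6 ± 83.4 (SD, n = 2) against 1005 ± 33.7 at 24 h, 665.1 ± 11.2 against 565 ± 2.6 at 48 h, and 638.4 ± 40.4 against 570.5 ± 54.1 at 72 h. The log2 difference over the 3 times was 0.22 ± 0.06 (limma, adjusted p = 0.144). Its empty vector side holds the values that chose the genes, so the plasmid differences and counts of NQO1 are a description only. Under the scanner names, which put arrays without GRHL1 signal among the GRHL1 arrays, the NQO1 difference was -0.12 at 48 h and -0.11 at 72 h, and that of SRXN1 was 0.03 and 0.04. At 24 h both GRHL1 plasmid arrays lay above both empty vector arrays in 5 of the 9 genes (NQO1, HMOX1, ME1, PIR and SRXN1), as in 22.1% of all genes. PIR counts there by its brighter probe. The other PIR probe overlapped, at 807.6 and 872.9 with GRHL1 against 831.4 and 892.9 with the empty vector.

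The change with time itself was compared between plasmids by an F test over both later times. None of the 8 genes other than NQO1 was called by limma, where 0.00811% of all genes were. SRXN1 was the 1 gene of the 8 with an unadjusted p under 0.05, as were 5.39% of all genes, and its adjusted p was 0.839. For HMOX1 the log2 change in GRHL1 plasmid cells minus that in empty vector cells was -0.39 ± 0.26 at 48 h and -0.67 ± 0.26 at 72 h, with an adjusted p of 0.928. For NQO1 the plasmids' changes differed by 0.03 ± 0.15 at 48 h and -0.04 ± 0.15 at 72 h, which is a description.

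**Figure D4:**
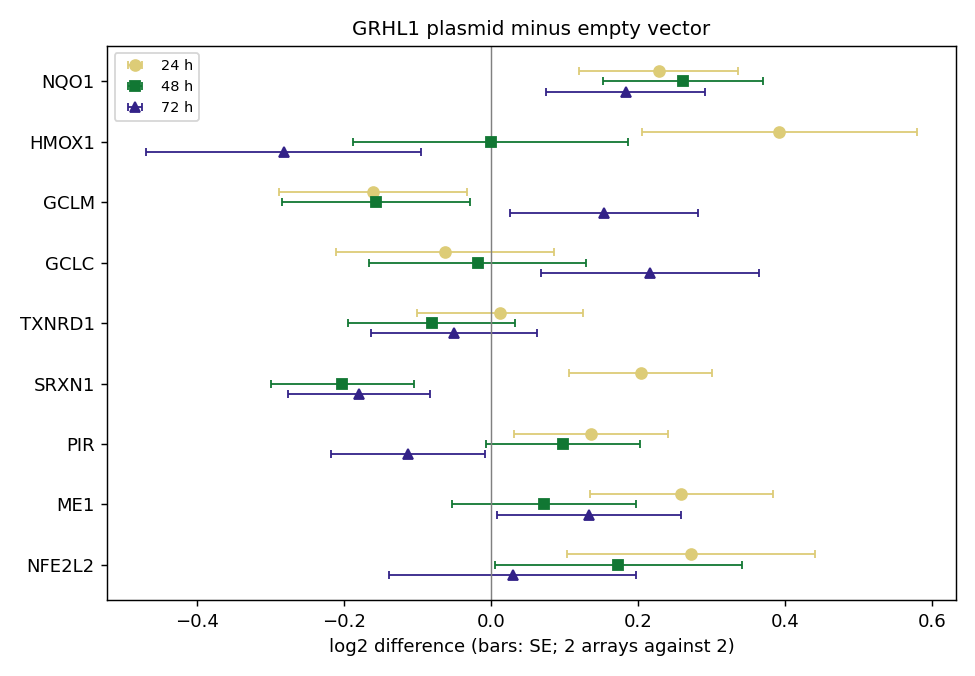
Log2 difference between GRHL1 plasmid and empty vector cells (x axis) for each gene at 24 h (circles), 48 h (squares) and 72 h (triangles), with bars of 1 SE and 2 arrays against 2. NQO1 lies above 0 at all 3 times (0.23, 0.26 and 0.18), and SRXN1 lies at 0.20, -0.20 and -0.18.

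Other genes of the pathway were taken from lists chosen with earlier results of these data known. Of 13 tested regulators of NRF2 none was called in GRHL1 plasmid cells at 48 or 72 h (limma), and 2 were lower at an unadjusted p under 0.05 at each time, against 5.89% and 5.84% of all genes. SQSTM1, the autophagy receptor p62 that sequesters KEAP1 and is itself an NRF2 target, differed by -0.36 ± 0.11 (adjusted p = 0.336) and -0.45 ± 0.11 (adjusted p = 0.203). MAFG, a small MAF partner, differed by -0.58 ± 0.19 at 48 h (adjusted p = 0.377). KEAP1 differed by -0.12 ± 0.16 (adjusted p = 0.863) and -0.14 ± 0.16 (adjusted p = 0.808). The list's median was -0.12 and -0.09, against -0.02 and -0.01 over all genes.

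Of 29 further NRF2 targets tested, none was called lower and 2 were called higher at 48 h and at 72 h in GRHL1 plasmid cells, where 0.0406% and 0.122% of all genes were called higher. Both were glutathione S-transferases, which conjugate glutathione to electrophiles. The GSTM1 probe read 1469.8 and 1622 at 24 h, 3208.7 and 3248.3 at 48 h, and 3306.3 and 3802.5 at 72 h in GRHL1 plasmid cells. With the empty vector it read 1215.3 to 1635.4 over the 3 times. GSTM1 rose by 1.10 ± 0.10 on the log2 scale at 48 h (adjusted p = 0.00785) and 1.24 ± 0.10 at 72 h (adjusted p = 0.00268). GSTM2 rose by 1.21 ± 0.12 (adjusted p = 0.00854) and 1.28 ± 0.12 (adjusted p = 0.00568). Between plasmids over the 3 times GSTM1, GSTM2 and GSTM3 were higher with GRHL1 by 0.93 ± 0.06 (adjusted p = 3.55e-05), 0.96 ± 0.07 (adjusted p = 9.53e-05) and 0.90 ± 0.07 (adjusted p = 0.000147), where 1.53% of all genes were called higher. These genes are close paralogs, and a probe may read more than 1 of them. At an unadjusted p under 0.05, 3 of the 29 were lower and 4 higher at 48 h in GRHL1 plasmid cells, against 5.89% and 3.96% of all genes. At 72 h 5 were lower and 4 higher, against 5.84% and 5.08% of all genes. The median of the 29 genes was -0.06 at 48 h and -0.04 at 72 h, so some fell and others rose.

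Of 12 other listed genes of the aryl hydrocarbon receptor route, a second route to NQO1 induction, 4 were tested. They were AHR, the receptor itself, ARNT, its partner, LPCAT2 and TIPARP, and ARNT read 107.4 to 142.8, around the detection limit. CYP1A1, CYP1A2 and CYP1B1 were on the array but not tested, so little is learned here about the receptor's target genes. None of the 4 was called (limma), with 1 lower at an unadjusted p under 0.05 at each time, against 5.89% and 5.84% of all genes. That was TIPARP, a mono-ADP-ribosyltransferase, at -0.40 ± 0.14 (adjusted p = 0.404) and -0.36 ± 0.14 (adjusted p = 0.399). Of 23 other antioxidant enzymes none was called at 48 h, where 0.0974% of all genes were. There 3 were lower and 1 higher at an unadjusted p under 0.05, against 5.89% and 3.96% of all genes. At 72 h 1 was called lower, against 0.0893% of all genes. That gene was AIFM2, a ubiquinone reductase, with an adjusted p of 0.0421. It read 156 and 175.2 at 24 h and at most 126.8 later in GRHL1 plasmid cells, below the detection limit, so its fall is given as at least 1.29-fold. Of 5 tested genes of the metallothionein list, which includes the transcription factor MTF1, none was called (limma). Of these, 3 and 2 were higher at an unadjusted p under 0.05, against 3.96% and 5.08% of all genes. MT1X differed by 0.48 ± 0.11 (adjusted p = 0.167) and 0.50 ± 0.11 (adjusted p = 0.124).

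**Figure D5:**
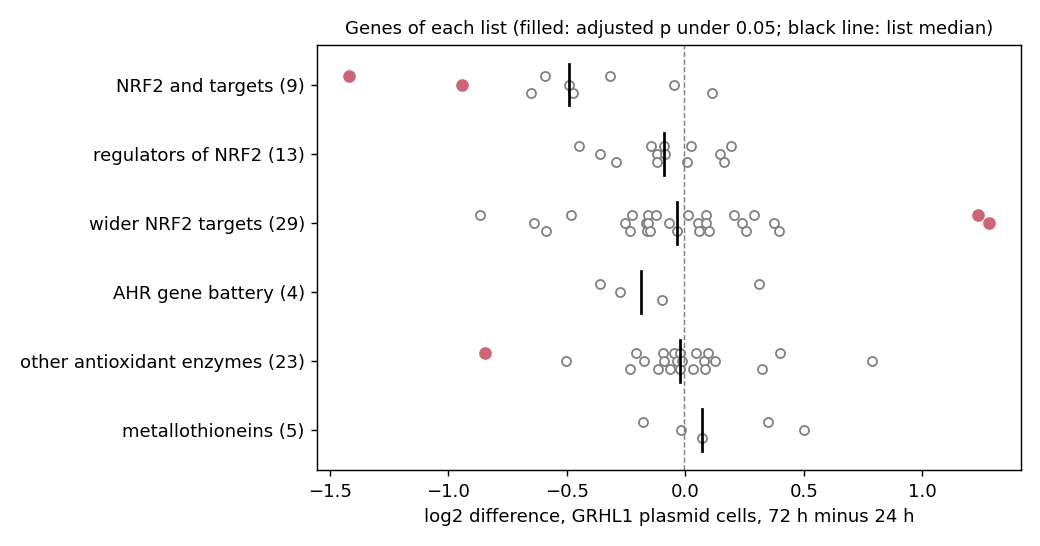
Log2 difference between 72 and 24 h in GRHL1 plasmid cells (x axis) for each gene of each list, with 1 point per gene, filled where the adjusted p was under 0.05, a black line at the list's median and the number tested in brackets. The median of NRF2 and its 8 targets is -0.49, and those of the 29 further targets and 23 other antioxidant enzymes are -0.04 and -0.02.

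Likeness to NQO1 was measured as the correlation of log2 values over the 12 arrays, which share the step from 24 h to later times, and is a description. The genes most like NQO1 were KLF6 (r = 0.964), PAF1 (0.962), ADRM1 (0.958), CLTB (0.94) and LMNA (0.939). KLF6, a zinc-finger transcription factor, read 2995.6 to 3232.7 at 24 h and 1933.9 to 2249.6 later. Among the NRF2 targets the correlation with NQO1 was 0.934 for HMOX1, 0.919 for ME1, 0.904 for PIR, 0.88 for GCLM, 0.833 for TXNRD1 and 0.724 for SRXN1. Counted from the gene most like NQO1, these ranked 7, 12, 22, 38, 102 and 351 among all genes tested. GCLC (0.396, rank 1976) and NFE2L2 (-0.114, rank 7026) were the members least like NQO1. The most negative correlations were with MT1X (-0.95), MAP3K20 (-0.948) and CHGB (-0.942), of which MT1X read 314.3 to 337.6 at 24 h and 399.8 to 469.1 later.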

How the data were processed

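Total RNA labelled with biotin was hybridised to 12 Illumina BeadChips, per the labels' protocols. The authors deposited a normalized table of linear intensity for 47323 probes, and a scanner table that also gives a detection p-value per intensity, per the file headers. How it was normalized is not stated in the labels or headers. Sample titles gave the groups and replicate numbers. The members and gene lists were chosen with earlier results of these data known. From the deposited intensity values, normexp background correction (offset 16) and log2 were computed with limma 3.58.1 in R 4.3.3. Probes naming 1 gene (30113) and detected on at least 2 arrays (detection p under 0.01 and above background) were kept, with the brightest probe per gene (12323 genes). A mean per group was fitted over all 12 arrays (residual degrees of freedom 6) with eBayes, and p-values were Benjamini-Hochberg adjusted over all 12323 genes at a threshold of 0.05. Depth has no meaning for arrays, whose number limits the precision. The scripts were tested on simulated data. All 10 genes were named, with KEAP1, called list genes or those of smallest p (up to 4 per list), and the 5 genes most and 3 least like NQO1. Alternatives changed the background correction, offset, scaling, table, filter, probe, variance model, block, arrays fitted and arrays left out.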

Additional observations from a re-analysis of the deposited data

Results flagged for a closer look

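SRXN1 was singled out because its plasmid difference turned with time, so the turn is a description only. The share of all genes with such a turn was not counted. At 24 h alone, both GRHL1 plasmid arrays lay above both empty vector arrays in 22.1% of all genes. GRHL1 plasmid minus empty vector was 0.20 on the log2 scale at 24 h, -0.20 at 48 h and -0.18 at 72 h. At 24 h both GRHL1 plasmid arrays (395.2 and 419.9) lay above both empty vector arrays (349.9 and 377.7). At 48 h both (305.3 and 310.7) lay below (334.4 and 351.8), and at 72 h both (306.8 and 312.2) lay below (330.3 and 352.1). The F test of the difference in time course gave an adjusted p of 0.839 over all genes (limma), so it did not pass the threshold. Under the scanner table's names, which go against the GRHL1 probe's signal at these times, the difference was 0.03 at 48 h and 0.04 at 72 h, so the turn was not present there. That run also used the scanner intensities with quantile normalization. No group had the 4 arrays that a test for single outlying arrays needs.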

How the results depend on the processing

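Every count of calls rested on groups of 2 arrays. The 2 genes called at 48 h in GRHL1 plasmid cells became 5 without background correction, 7 with a variance trend and robust estimation, 1 with every probe fitted on its own, 1 with a replicate block (NQO1 kept, HMOX1 lost), and 0 under the scanner names, with no detection filter, with only the arrays of the groups compared or with only the 6 GRHL1 plasmid arrays. The 2 genes called at 72 h became 5 without background correction, 4 with an offset of 50, 5 with the variance trend, and 0 under the same 4 settings. Over both later times, 2 became 6 without background correction, with an offset of 50 or with detection on at least 6 arrays, 7 with the variance trend and 0 with the 6 arrays alone. Leaving out 1 array gave 0 to 2, 0 to 2 and 0 to 3 calls. NQO1 kept its direction in GRHL1 plasmid cells throughout. Its log2 difference at 48 h was -1.10 under the scanner names and -0.88 (no longer called) with no filter, only the arrays compared or the 6 arrays alone, and at 72 h it was -1.07 and -0.94 in the same settings. Leaving out 1 array gave -0.95 to -0.80 and -1.02 to -0.87, and the call was lost without either array at 24 h or either array of the later GRHL1 group. The mean plasmid difference of NQO1 was called only with the variance trend (limma, 1 gene called, log2 difference 0.22, adjusted p = 0.0361). It contains the empty vector values that chose the genes, so nothing is read from that call. Over all genes, calls ran from 0 to 98 at 48 h (12 as reported), 0 to 103 at 72 h (26), 2 to 166 over both (28), and between plasmids from 0 to 123, 0 to 124, 0 to 97 and 0 to 392 (47, 55, 40 and 211). No called difference changed sign, but differences that passed no threshold did, mostly under the scanner names, as for NQO1 between plasmids at 48 h (0.26 to -0.12) and 72 h (0.18 to -0.11) and SRXN1 (-0.20 to 0.03 and -0.18 to 0.04). The design text calls the samples paired. Same-numbered arrays of the 2 plasmids deviated together at r of 0.114, 0.017 and 0.03 at 24, 48 and 72 h. For all other combinations of groups r was -0.03 to 0.06, so the 24 h value was the highest. The numbers were not taken as pairs in the reported fit, and a pairing at 24 h is not excluded. The replicate block changed no other call among the members. The cause of these changes was not tested.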

Other observations

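Outside NRF2 and its 8 targets, 6 of the 74 other listed genes tested had all 4 arrays at 24 h above all 8 later arrays, against 1.8% of all genes tested, and 2 had them below, against 1.32%. These genes were singled out after their values were seen and carry no test. The 6 were AIFM2, AKR1C3, CBR1, NQO2, SQSTM1 and TKT. AKR1C3, an aldo-keto reductase, read 1895.7 to 2507.8 at 24 h and 997 to 1842.2 later. TKT, transketolase of the pentose phosphate pathway, read 3978.7 to 4211.5 and 3237.3 to 3834.1. NQO2, a paralog of NQO1, read 468.6 to 587.4 and 313.9 to 427.7. CBR1, a carbonyl reductase, read 297.2 to 326.9 and 210.6 to 288. The 2 that ran the other way were MT1X, described above, and ABCC3, an efflux transporter, at 244.5 to 281.6 and 311.2 to 429.6.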
